A study of Mus musculus with 8 samples.

Results

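The baseline replication timing programme of mouse embryonic stem cells was described from the 2 profiles of cells that were given no auxin, out of 4 profiles in the series. Its members are the autosomal bins of 50 kb that hold at least 3 of the deposited windows, which left 41018 of 45810 autosomal bins with a window, or 2051 Mb. The windows lie mostly 6 kb apart, and 305497 of the 316864 windows in the table are autosomal. The cells are of the male line E14Tg2a, on a 129/Ola isogenic background, or subclones of it, grown in serum with leukemia inhibitory factor. They carry CTCF fused to an auxin-inducible degron, a tag that leads to destruction of the protein once auxin is added, so the cells described here carry the tag but were never induced. For each profile, cells took up the thymidine analogue BrdU for 2 h and were sorted by propidium iodide staining into early and late S-phase fractions. BrdU-labelled DNA from 40000 cells, which the labels may mean per fraction, was precipitated with an antibody and sequenced, so the 2 profiles rest on 4 of the 8 libraries of the series. Neither the CTCF protein nor RNA was measured in these files, so the state of the cells was not checked against markers.

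Replication timing is the order in which stretches of the genome are copied during S phase. Mammalian chromosomes are copied in large domains of many neighbouring origins that fire at about the same time, and early and late domains broadly match open, gene-rich and compact, gene-poor chromatin. The pattern is cell-type specific, and many regions that change timing during differentiation of embryonic stem cells hold developmental genes. The zinc finger protein CTCF binds insulator sites and, with cohesin, anchors chromatin loops.

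The contrast between early and late chromatin can be read in promoter sequence. For the longest early and late domains, the genes whose promoter held the number of CpG dinucleotides nearest to the median of its timing class are shown, at 18 CpG for early and 4 for late promoters. Sequences are from RefSeq (GRCm38.p6), run from 250 bases before to 50 bases after the gene start on the gene's own strand, and carry each CpG in capitals. Afmid, which encodes a formamidase of tryptophan breakdown, has its promoter at chr11:117825669-117825968 on the plus strand and lay in a bin with timing scores of 2.92 and 3.93 in replicates 1 and 2. The promoter of Armc7 lies at chr11:115475417-115475716 on the plus strand, in a bin that scored 3.42 in both replicates. P2ry12, an ADP receptor of platelets and microglia, has its promoter at chr3:59262936-59263235 on the minus strand and scored -2.60 and -3.43. P2ry14, a receptor for UDP-sugars, has its promoter at chr3:59153443-59153742 on the minus strand and scored -2.76 and -2.93.
Afmid: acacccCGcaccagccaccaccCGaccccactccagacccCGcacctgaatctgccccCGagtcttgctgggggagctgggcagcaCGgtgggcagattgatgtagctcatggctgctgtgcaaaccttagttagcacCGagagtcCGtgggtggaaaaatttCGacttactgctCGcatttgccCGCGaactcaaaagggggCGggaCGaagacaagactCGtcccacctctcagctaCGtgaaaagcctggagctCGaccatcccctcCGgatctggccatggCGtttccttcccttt
Armc7: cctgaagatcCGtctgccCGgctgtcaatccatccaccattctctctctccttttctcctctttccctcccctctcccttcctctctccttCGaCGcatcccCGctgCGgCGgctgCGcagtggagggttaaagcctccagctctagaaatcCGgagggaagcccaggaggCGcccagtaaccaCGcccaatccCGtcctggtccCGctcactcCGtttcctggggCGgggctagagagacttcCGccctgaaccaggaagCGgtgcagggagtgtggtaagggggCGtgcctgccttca
P2ry12: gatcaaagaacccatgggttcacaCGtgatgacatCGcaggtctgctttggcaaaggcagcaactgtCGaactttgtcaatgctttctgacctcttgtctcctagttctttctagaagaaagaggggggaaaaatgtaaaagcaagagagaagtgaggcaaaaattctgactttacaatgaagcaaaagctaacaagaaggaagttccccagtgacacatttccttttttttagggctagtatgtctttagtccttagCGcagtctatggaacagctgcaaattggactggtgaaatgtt
P2ry14: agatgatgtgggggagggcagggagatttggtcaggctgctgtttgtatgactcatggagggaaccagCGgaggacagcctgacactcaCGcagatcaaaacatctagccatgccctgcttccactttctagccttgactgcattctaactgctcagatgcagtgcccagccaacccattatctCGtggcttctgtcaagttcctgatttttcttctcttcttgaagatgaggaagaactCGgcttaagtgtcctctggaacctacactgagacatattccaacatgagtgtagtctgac
Capitals are frequent along both early promoters and sparse along both late ones, where GC content was 42.3% for P2ry12 and 49.3% for P2ry14 against 59.7% for Afmid and 62.7% for Armc7. These promoters were picked by their CpG number, so they illustrate the class medians given below and add no evidence to them.

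Each timing score is a quantile-normalized value. The sources used here do not give its formula or log base, so values are stated in score units. Higher scores mean earlier replication: untreated cells scored higher than auxin-treated cells in 63 of 63 regions that the authors listed as moving from early to late, and lower in 22 of 22 regions listed as moving from late to early. Read depth is unknown, because the files hold no counts. The labels do not say that the replicates came from separate cultures. Every p-value below rests on the spread between these 2 profiles, largely pooled over bins, and that spread may be technical.

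Scores formed a broad distribution with a late and an early peak and a lower plateau between them. The median bin scored -0.34 in replicate 1 and -0.36 in replicate 2, the middle 50% of bins ran from -2.17 to 1.79 and from -2.16 to 1.78, and the SD over bins was 2.18 and 2.19. The profiles had been forced to the same set of window scores by the authors, so likeness of these distributions carries no information about the cells. Bins were called early where the mean of both profiles was above 0.5, late below -0.5 and middle between. By that rule 16475 bins (40.2%, 823.8 Mb) were early, 4784 (11.7%, 239.2 Mb) were middle and 19759 (48.2%, 988 Mb) were late. Early bins had a median score of 2.20 in replicate 1 and 2.19 in replicate 2, and late bins -2.22 and -2.21.

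The order of bins was nearly the same in both profiles. Over the 41018 bins, which share neighbours and the same pipeline, Pearson's r was 0.985 and Spearman's rho 0.9815. The difference between profiles had an SD of 0.383 and a median size of 0.236 score units. The same class was found in both profiles for 38993 bins (95.1%), and no bin was early in one and late in the other. Agreement was lowest in the middle class, with 78.4% of its bins in the same class in both profiles, against 97.1% of early and 97.4% of late bins. The 2025 bins that changed class were each middle in exactly 1 profile. Spread was smallest near the centre of the scale: the SD of the difference was 0.258 in decile 6 of bins by score, against 0.489 in the latest decile and 0.537 in the earliest. It also fell with the number of windows behind a bin, from 0.487 at 3 windows to 0.331 at 8 or 9. Bins with 3 windows were mostly late (94.6%), while bins with 8 or 9 windows were 47.3% early and 35.7% late.

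**Figure D1:**
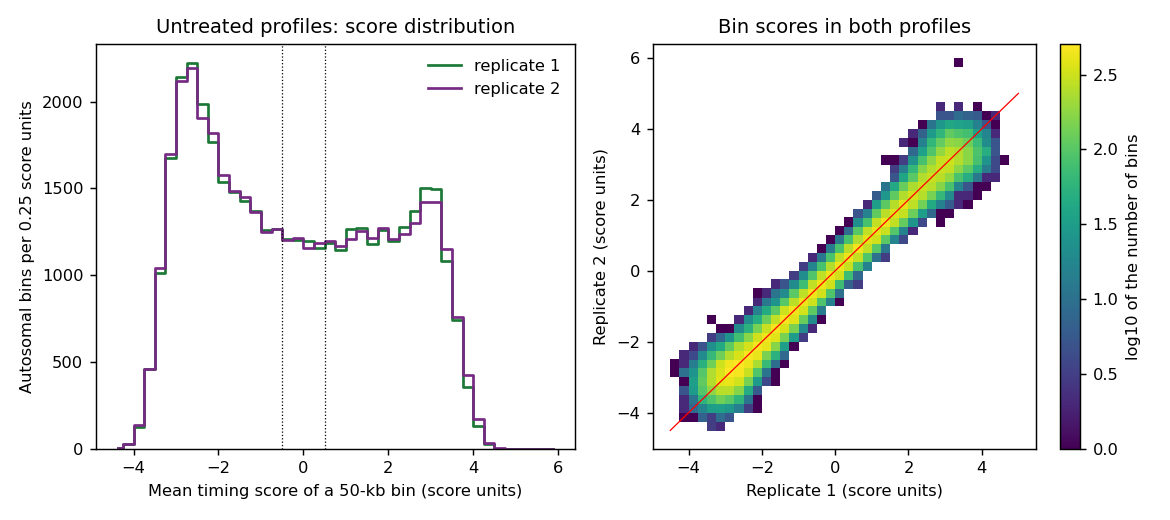
Left, number of autosomal 50-kb bins per 0.25 score units in replicate 1 (green) and replicate 2 (purple), with dotted lines at the class limits of -0.5 and 0.5. Right, the score of each bin in replicate 2 against replicate 1, coloured by the log10 number of bins, with the red line marking equal scores; the bins lie along that line, with r of 0.985 over 41018 bins.

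Most bins lay beyond the class limits by more than the error of the fit. With 2 profiles, that error comes mostly from the spread between profiles pooled over all bins, not from each bin's own spread. A bin near a limit can therefore fail although its profiles agree, as that of Sox17 did at -0.77 and -0.76. With limma's treat test against a margin of 0.5 score units and Benjamini-Hochberg adjusted p under 0.05, 14997 bins (36.6% of all bins tested) were earlier than 0.5 and 18196 (44.4%) were later than -0.5. These made up 91.0% of early and 92.1% of late bins. Profiles were also simulated with the mean variance of the real ones, drawn without regard to score or neighbouring bins. There the fit called 37.75% of bins with a true score of 0.75, 85.75% at 1 and 99.75% at 1.5. Bins just past a limit were thus often not called in the simulation. Real spread was smaller there, with an SD of the difference of 0.272 in decile 7 (scores of 0.51 to 1.37) against 0.383 over all bins. The simulated rates therefore need not hold for the real bins.

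Score changed gradually along chromosomes. Neighbouring bins had scores that correlated at r = 0.986, and the correlation was 0.575 at 500 kb, 0.337 at 1000 kb and 0.0958 at 5000 kb. The sources used here do not describe any smoothing, so its share in the correlation of neighbours was not tested. The differences between the profiles correlated at r = 0.496 between 39169 pairs of adjacent bins and at 0.0491 between bins 1 Mb apart.

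Runs of adjacent bins of 1 class were counted as domains. The mean profile held 895 early domains, with 901 in replicate 1 and 956 in replicate 2. Their median length was 550 kb in the mean and in each replicate, and the longest reached 8050 kb in all of them. The 263 early domains of 1 Mb or more held 69.0% of early bins, and 53 of them were 3 Mb or longer. Late chromatin fell into 2569 domains (2551 and 2621 in replicates 1 and 2) with a median length of 200 kb and a maximum of 4100 kb. The 273 late domains of 1 Mb or more held 41.0% of late bins.

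The number of late domains rested on bins with too few windows. Of late domain ends, 67.2% fell at a missing bin, against 11.01% of early and 1.39% of middle domain ends. Of the 4792 bins left out for having under 3 windows, 97.4% scored below -0.5. When gaps of up to 2 bins were bridged between runs of the same class, late domains numbered 1520, with a median of 500 kb, a maximum of 5050 kb and 380 domains of 1 Mb or more holding 60.8% of late bins. Early domains moved less in number and median, to 830 and 600 kb, but their maximum rose from 8050 to 10850 kb. The bridged replicates gave 836 and 891 early domains and 1504 and 1573 late ones. Of the 1802 early domain edges of replicate 1, 60.9% had an early edge of replicate 2 at the same bin border and 91.45% within 50 kb. In the reverse direction 57.4% and 85.2% of the 1912 early edges of replicate 2 were matched. Late edges mostly fall at missing bins, which both profiles share, so their match was not read.

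**Figure D2:**
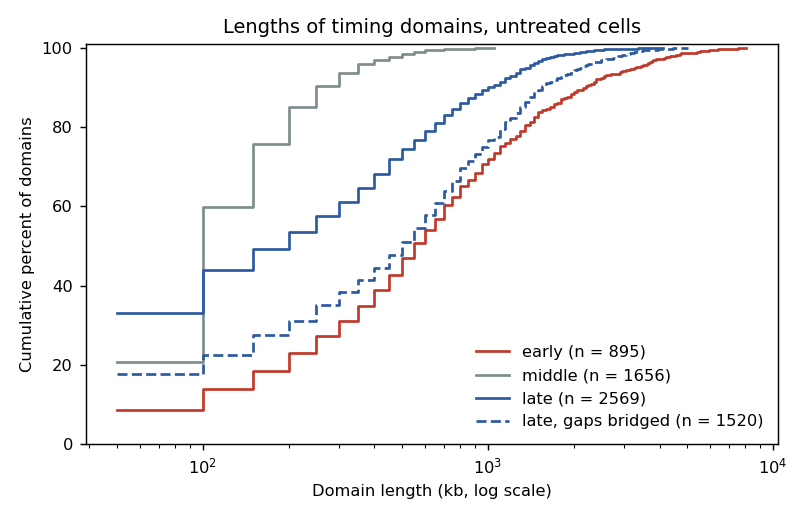
Cumulative percent of domains against domain length in kb on a log axis, for early (red, 895), middle (grey, 1656) and late (solid blue, 2569) domains of the mean profile, and for late domains with gaps of up to 2 bins bridged (dashed blue, 1520). Early domains are the longest at a median of 550 kb, and bridging moves the late median from 200 to 500 kb.

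Longer early domains were earlier and held more genes. The order in score follows in part from how domains were defined. Scores changed gradually along chromosomes, so a short run of bins above the class limit has little room to score far above it. Whether gene density rose with domain length among bins of like score was not tested. Early domains under 200 kb had a median bin score of 0.66 in replicate 1 and 0.71 in replicate 2 and 11.3 protein-coding gene starts per Mb. The values were 1.46 and 1.52 with 13.0 per Mb for domains of 200 kb to under 1 Mb, and 2.30 and 2.27 with 16.7 per Mb for 1 to under 3 Mb. In early domains of 3 Mb or more they reached 2.87 and 2.90 with 21.0 per Mb. Late domains, counted without bridging, showed no such order. Of their ends, 67.2% fell at a missing bin, so short late runs may be pieces of longer late stretches. The order with gaps bridged was not tested. Unbridged late runs under 200 kb were the latest, with medians of -3.06 and -2.78 and 3.54 genes per Mb. At 200 kb to under 1 Mb the medians were -2.10 and -2.09 with 4.44 per Mb. From 1 to under 3 Mb the values were -2.15 and -2.17 with 3.76 per Mb, and the 7 domains of 3 Mb or more scored -2.40 in both replicates with 2.75 per Mb.

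Without bridging of gaps, the longest early domain lay at chr2:28250001-36300000 (mm10) and spanned 8050 kb. It averaged 2.77 in replicate 1 and 2.78 in replicate 2 (mean 2.77 ± 0.0115, SD, n = 2). It held 142 protein-coding genes, among them the tyrosine kinase gene Abl1 (3.45 and 3.34), the mTOR inhibitor gene Tsc1 (3.79 and 3.24) and Lmx1b, a LIM homeobox gene of limb and neuron development. Its 161 bins were early in both profiles, and the lowest of them averaged 0.80. The next longest, at chr11:114400001-121950000, spanned 7550 kb, averaged 2.98 in both replicates and held 197 genes, including the adaptor gene Grb2 (2.90 and 3.41) and Timp2, an inhibitor of metalloproteinases. A domain of 6450 kb at chr15:79900001-86350000 held 110 genes with the histone acetyltransferase gene Ep300 (2.83 and 3.28) and the lipid regulators Ppara and Srebf2. A domain of 6400 kb at chr2:162800001-169200000 averaged 2.71 and 2.66 over 117 genes and included Hnf4a, a hepatocyte nuclear receptor that scored 2.75 and 3.06. The fifth, at chr1:130950001-137150000, spanned 6200 kb and held Nr5a2, an orphan nuclear receptor of pluripotent cells, at 2.23 and 1.94 among 95 genes. With gaps of up to 2 bins bridged, the order changed. The longest was then 10850 kb at chr15:75500001-86350000, with 256 genes. Next came 10700 kb at chr4:131700001-142400000 with 200 genes, and 9350 kb at chr5:109550001-118900000 with 124.

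Counted without bridging, the longest late domains held few genes. At chr17:49150001-53250000, 4100 kb averaged -2.42 in replicate 1 and -2.58 in replicate 2 and held 9 genes, or 2.20 per Mb. Its genes include Satb1, a chromatin organizer of T cells that scored -1.46 and -1.61, and the germ cell gene Dazl at -2.53 and -3.01. A domain of 4050 kb at chr8:112300001-116350000 averaged -2.14 and -2.27 and also held 9 genes. It contains Wwox, a very long gene at a common fragile site, whose start scored -0.83 and -0.81, and the transcription factor gene Maf at -2.70 and -2.74. At chr15:89800001-93250000, 3450 kb held 12 genes, including the kinase gene Lrrk2 at -2.47 and -3.03. At chr10:34550001-37900000, 3350 kb held 4 genes, Hs3st5, Hdac2, Marcks and Amd2. The histone deacetylase gene Hdac2 lay near the class limit there, at -0.75 and -0.71, and did not pass the test. The fifth, at chr3:58800001-62100000, spanned 3300 kb, averaged -2.24 and -2.20 and held 19 genes. These include the splicing regulator gene Mbnl1 (-3.12 and -3.53) and the nucleotide receptor genes P2ry1, P2ry12, P2ry13 and P2ry14. With gaps of up to 2 bins bridged, the longest late domain, 5050 kb on chromosome 3, held 24 genes, or 4.75 per Mb. The next, 4900 kb at chr1:172700001-177600000, held 48 genes, or 9.80 per Mb, near the 9.53 over all bins. A bridged domain of 4450 kb on chromosome 10 held 6 genes, or 1.35 per Mb.

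**Figure D3:**
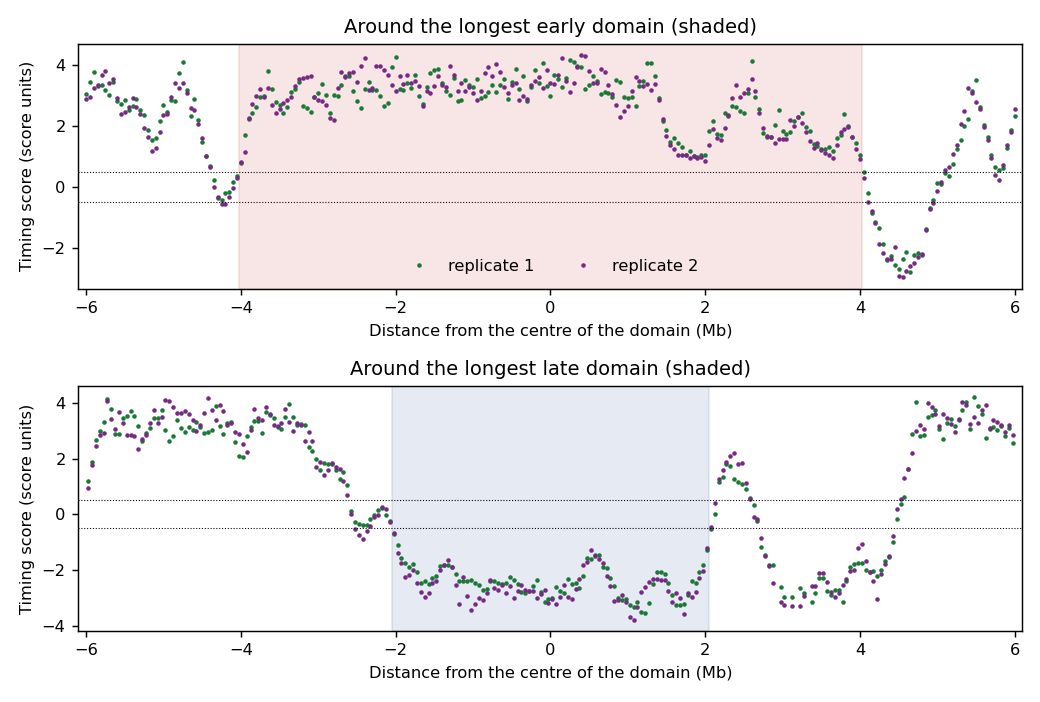
Timing score of each 50-kb bin against distance in Mb from the centre of the longest early domain (top, shaded red, 8050 kb) and the longest late domain (bottom, shaded blue, 4100 kb), in replicate 1 (green) and replicate 2 (purple), with dotted lines at -0.5 and 0.5. Scores inside the early domain vary between about 0.80 and 4.12 in the mean of both replicates, and the replicates follow the same peaks and valleys. Both domains were counted without bridging of gaps.

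Most middle runs were passages between early and late chromatin, and these held 3012 of the 4784 middle bins. Scores that change gradually cross the middle class at such a passage by definition. Of 1656 middle runs, with 1647 and 1769 in replicates 1 and 2 and a median length of 100 kb, 1183 (71.4%) had an early domain on one side and a late one on the other. A further 189 (11.4%) lay inside early chromatin and 239 (14.4%) inside late chromatin, and an early bin touched a late bin directly at 5 places. Long middle runs were rare. The longest, 1050 kb at chr12:109150001-110200000, averaged -0.07 in replicate 1 and -0.08 in replicate 2, and all 21 of its bins were middle in both profiles. It contains the imprinted genes Dlk1, a Notch ligand homologue, at 0.11 and 0.10, and Rtl1, derived from a retrotransposon, at -0.29 and 0.01. The next longest, 1000 kb at chr9:47800001-48800000, holds Zbtb16, a transcription factor gene of germline stem cells, and one of 900 kb at chr10:120300001-121200000 holds Hmga2, an architectural chromatin protein gene. These middle runs were named after their values were seen.

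Protein-coding genes were concentrated in early bins. Of 20661 autosomal protein-coding genes in RefSeq, 19539 started in a retained bin and 1122 (5.43%) did not. Early bins held 16.67 gene starts per Mb in replicate 1 and 16.75 in replicate 2 (16.7 ± 0.0574, SD, n = 2), middle bins 7.39 and 7.37, and late bins 4.08 and 4.04. Early bins, 40.2% of the total, held 70.5% of the genes, and late bins 20.5%. No protein-coding gene started in 48.1% of early, 72.0% of middle and 84.4% of late bins. Read the other way, bins without a gene start were 28.2% early and 59.5% late, bins with 1 start 60.5% and 27.9%, and bins with 4 to 6 starts 85.0% and 11.9%. Counting genes by the test, 13132 of 19539 genes (67.2%) started in bins earlier than 0.5 beyond error and 3500 (17.9%) in bins later than -0.5. These shares are the background against which the gene lists below are read.

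Density rose at every step from the latest to the earliest decile of bins. It was 2.60 gene starts per Mb in decile 1 (scores of -4.03 to -2.90), 6.19 in decile 5, 12.3 in decile 8 and 28.1 in decile 10 (2.99 to 4.61). Promoter sequence moved along the same scale. Median CpG number per 300-base promoter rose from 2 in the latest decile to 19 in the earliest, and median GC content from 42.3% to 60%. The steepest part of the rise in CpG number fell between decile 4, at 4, and decile 6, at 12.

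**Figure D4:**
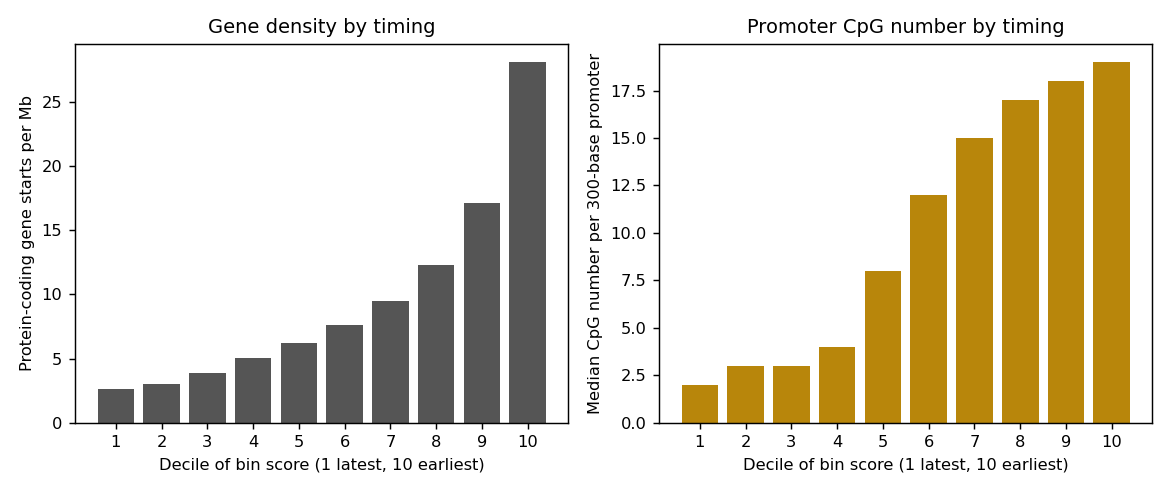
Protein-coding gene starts per Mb (left) and median number of CpG dinucleotides per 300-base promoter (right) in deciles of the autosomal bins ordered by mean timing score, from 1 (latest) to 10 (earliest). Density rises from 2.60 to 28.1 per Mb and the median CpG number from 2 to 19.

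By class, the 10964 early promoters had a median of 18 CpG and 59.3% GC, the 1419 middle promoters 11 and 54.7%, and the 3207 late promoters 4 and 47%. At least 10 CpG were present in 70.5% of early, 53.6% of middle and 32.6% of late promoters. CpG-rich promoters are typical of broadly used and developmental genes, and CpG-poor ones of tissue-restricted genes. The chemoreceptor families described below account for part of the contrast in promoter sequence. Without their genes, 907 of them late, the late median rose to 7 CpG and 51% GC, while the early median stayed at 18 CpG. The contrast in gene density did not shrink without them. Late bins then held 3.13 gene starts per Mb and early bins 16.5, against 4.05 and 16.7 with all genes. Promoter sequences were available for 15590 of the 19539 genes.

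Very long genes were mostly late. Genes of 10 to 50 kb were 78.3% early and 13.3% late. At 200 to 500 kb the shares were 42.2% and 42.8%, and of the 190 genes of 500 kb or more, 34 (17.9%) were early and 133 (70%) were late. In a list of 26 very long genes, of which 22 started in retained bins, 20 were in bins later beyond error and none in bins earlier, against 17.9% and 67.2% of all genes. Nrxn3, a presynaptic adhesion gene, scored -3.75 and -3.61 and was the latest of them. Csmd1, a complement-related membrane protein gene of brain, scored -2.59 and -2.43. The starts of Lrp1b and Cntnap2, both over 2 Mb long, lay outside the retained bins. The mean over their bodies was -2.85 and -2.47 over 86 windows for Lrp1b, and -2.12 and -1.86 over 164 windows for Cntnap2. Auts2, a neuronal gene, was the earliest of the list at 0.35 and 0.16, in a middle bin.

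Every one of 28 pluripotency genes lay in a bin earlier beyond error, where 67.2% of all genes did. The median of the list was 2.38 in replicate 1 and 2.61 in replicate 2, against 2.04 and 2.05 over all genes. Of the core transcription factor genes, Pou5f1 scored 2.69 and 3.26, Nanog 2.43 and 3.50, and Sox2 2.09 and 2.00. Nanog differed between the replicates by more than the typical bin, Sox2 by less. Klf4 scored 2.27 and 2.12 and Esrrb, an orphan nuclear receptor gene, 2.28 and 2.25. Zfp42, also known as Rex1 and a marker of naive cells, scored 1.78 and 1.91, with 5 windows in its bin. Mycn, a proto-oncogene active in stem cells, scored 2.18 and 2.83. The earliest of the list was Tet1, which oxidizes methylated cytosine, at 4.04 and 3.40. The latest was Dppa4, at 0.67 and 1.06. Its neighbour and partner Dppa2 scored 1.06 and 1.33, so this chromosome 16 locus lay toward the late end of the pluripotency genes while still early. Timing is not expression, and no RNA was measured here.

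The panel also held genes of chromosome architecture and of timing. Ctcf itself scored 2.94 in replicate 1 and 4.00 in replicate 2, a difference of more than 1. Rad21, a cohesin subunit gene, scored 1.39 and 1.56, and Rif1, whose product holds back late origins, 2.07 and 2.30. Among 31 genes of origin licensing and firing, 28 (90.3%) lay in bins earlier beyond error, against 67.2% of all genes. Mcm2, a subunit of the replicative helicase, scored 1.29 and 1.37, and Orc1, of the origin recognition complex, 3.16 and 2.76. The earliest was Pole, the leading-strand polymerase, at 3.27 and 3.86. 1 member was middle, and Orc4, another subunit of the origin recognition complex, was the single late member at -1.90 and -1.87.

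Genes of the basic machinery of the cell were mostly early. The shares over all genes were 67.2% earlier and 17.9% later beyond error. All 19 housekeeping genes were in bins earlier beyond error, from B2m (2.26 and 2.39) to Ppia (3.43 and 4.30), with Gapdh at 3.30 and 3.25 and Actb at 3.10 and 3.88. So were 13 of 13 RNA polymerase II subunit genes, 30 of 31 splicing factor genes, 36 of 39 proteasome genes and 69 of 77 cytosolic ribosomal protein genes. Each group had late exceptions except RNA polymerase II and the housekeeping list. Snrpb2, a spliceosomal protein gene, scored -2.06 and -2.04. Psmd6, a subunit of the proteasome lid, scored -1.37 and -1.77. Rpl10l, a testis copy of a ribosomal protein gene, scored -2.94 and -2.08. Of 78 mitochondrial ribosomal protein genes, 64 were earlier and 9 (11.5%) later beyond error, and the latest was Mrpl3 at -2.53 and -2.60. Of 47 complex I subunit and assembly genes, 40 (85.1%) were earlier and 3 (6.38%) later. Mediator subunit genes were earlier in 22 of 28 cases (78.6%) and later in 3 (10.7%), with Med12l latest at -1.74 and -2.10. Of 370 Zfp zinc finger genes, 313 (84.6%) were earlier beyond error and 24 (6.49%) later. Near-identical copies in that family can share reads.

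Lineage genes lay in all 3 classes. Of 24 neural genes, 9 (37.5%) were earlier and 10 (41.7%) later beyond error, against 67.2% and 17.9% of all genes. Of 24 mesoderm and endoderm genes, 15 (62.5%) were earlier and 4 (16.7%) later, close to those shares. Tubb3, the neuronal tubulin, was the earliest neural gene at 3.60 and 4.12. Sox1, an early neural factor, scored 1.69 and 1.37. Neurog2, a proneural gene, scored 0.54 and 0.66 and did not pass the test. Pax6, the eye and forebrain regulator, fell in the middle class at 0.46 and 0.49. Among endoderm genes, Gata4 was early at 1.54 and 1.15, while its paralogue Gata6 was late at -0.88 and -0.94. Foxa2 scored -1.04 and -1.06, and Sox17 scored -0.77 and -0.76 without passing the test. T, the mesoderm factor brachyury, scored 0.97 and 1.25. The muscle regulators differed: Myf5 scored -3.31 and -3.13, and Myod1 was middle at -0.04 and -0.45. Mixl1, a primitive streak homeobox gene, was the earliest at 3.88 and 3.35.

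Genes of terminally differentiated cells were not uniformly late. Of 29 in retained bins, 19 (65.5%) were earlier beyond error and 5 (17.2%) later, close to 67.2% and 17.9% over all genes. The alpha-globin gene Hba-a1 was early at 1.99 and 1.73, and the beta-globin gene Hbb-bt was late at -3.07 and -3.08. The serum protein genes Alb and Afp share a bin at -0.88 and -0.57, which did not pass the test, and the insulin gene Ins2 was middle at 0.12 and -0.16. Gfap, an astrocyte filament gene, was the earliest at 3.72 and 3.87.

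Olfactory receptor genes were the list with the most late genes by count, though not by share. Of 956 olfactory receptor genes in retained bins (of 1104 listed), 718 (75.1%) were late, 90 middle and 148 early, and 676 (70.7%) were later beyond error against 17.9% of all genes. They fell in 494 distinct bins, and their median score was -1.78 in replicate 1 and -1.63 in replicate 2. The clusters were not alike. On chromosome 2, 183 of 194 were late, with medians of -2.50 and -2.41, and on chromosome 7 170 of 216 were. On chromosome 11, 39 of 83 were late, 22 middle and 22 early. All 9 on chromosome 15 and all 5 on chromosome 8 were early, with medians of 1.37 and 1.18 and of 2.89 and 2.97. Olfr582 was the latest at -4.11 and -3.42, and Olfr1373 the earliest at 4.18 and 3.27.

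Vomeronasal receptors, which detect pheromones, followed a like split. Of 146 type 1 genes, 113 (77.4%) were late and 17 (11.6%) early. Of 80 type 2 genes, 56 (70%) were late and 12 (15%) early. Over all genes, 20.5% were late, 9.06% middle and 70.5% early, and 17.9% were later beyond error. All 20 bitter taste receptor genes were late, 14 of them beyond error, from Tas2r102 at -3.34 and -3.17 to Tas2r144 at -0.67 and -0.61. The 15 trace amine-associated receptor genes, a cluster on chromosome 10, were all middle, from -0.49 and -0.40 for Taar4 to -0.28 and -0.10 for Taar9. Genes of these families share bins and lie in clusters, so they are not independent members. Near-identical copies may also share reads, and of 230 type 1 and 122 type 2 vomeronasal genes listed, those counted are the ones in retained bins.

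**Figure D5:**
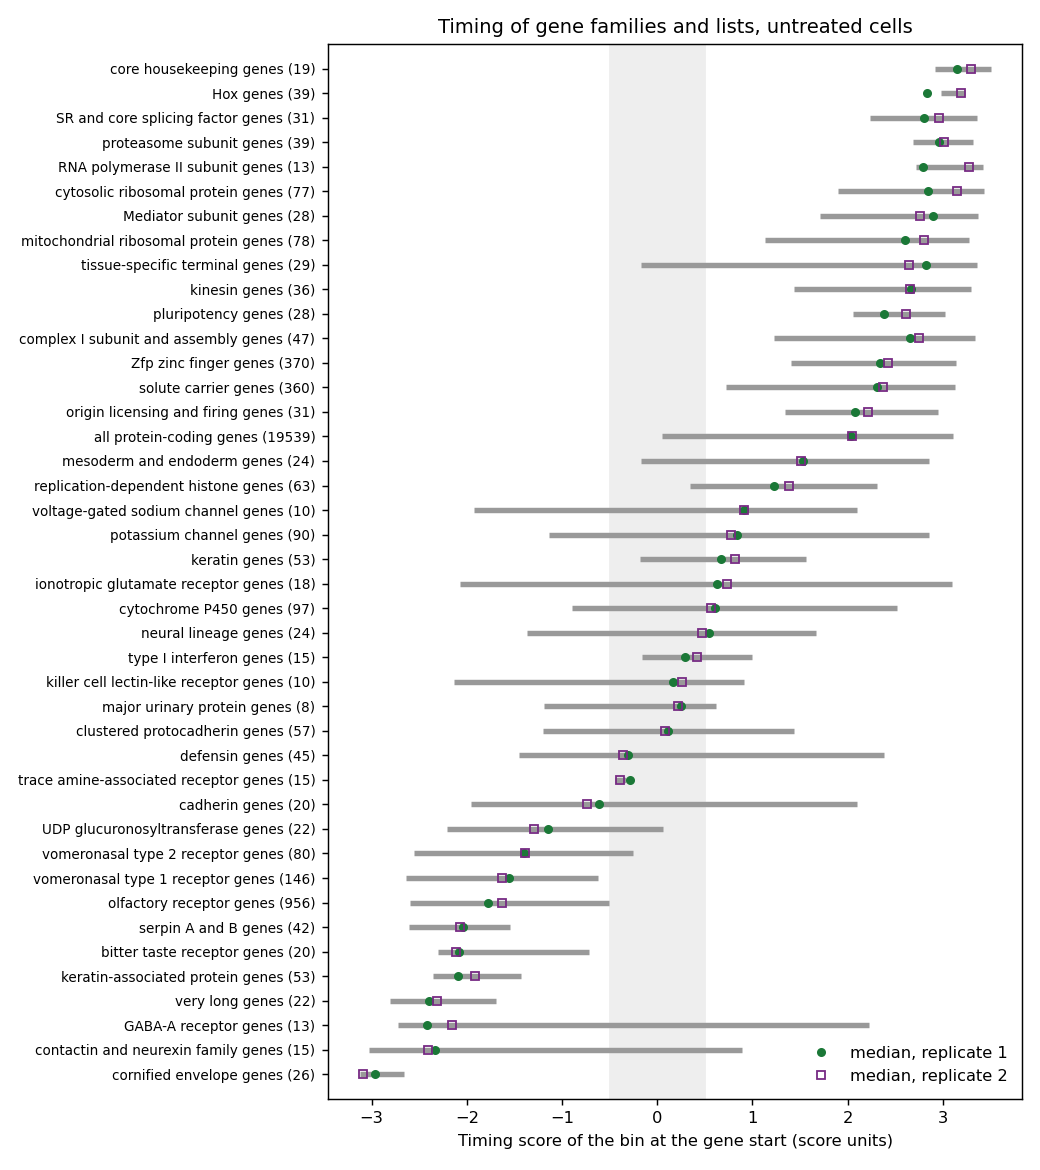
Median timing score, in score units, of the bins at the gene starts of each list in replicate 1 (green dots) and replicate 2 (purple squares), with grey bars from the lower to the upper quartile of the mean score, the middle class shaded, and the number of genes in retained bins in brackets. Housekeeping and Hox genes sit at the early end, olfactory, vomeronasal and bitter taste receptors on the late side, and cornified envelope genes at the late end with medians of -2.97 and -3.09.

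Other clustered families took 1 class or split, where 67.2% of all genes were earlier and 17.9% later beyond error. All 26 cornified envelope genes, which build the skin barrier, were later beyond error, from Sprr1a at -3.23 and -3.21 to Lce1j at -2.34 and -2.45, in 11 bins of chromosome 3. Of 53 keratin-associated protein genes of hair, 45 were later beyond error, including all 23 on chromosome 11 and all 21 on chromosome 16. The 3 on chromosome 10 were early, with Krtap12-1 at 2.23 and 1.96. Of 53 keratin genes, 30 (56.6%) were early, 13 (24.5%) middle and 10 (18.9%) late, where 70.5%, 9.06% and 20.5% of all genes were. Serpin A and B protease inhibitor genes were late in 37 of 42 cases. All 39 Hox genes, the body-axis regulators, were earlier beyond error, with cluster medians of 2.00 and 1.86 on chromosome 2, 2.91 and 3.42 on chromosome 6, 2.78 and 3.61 on chromosome 11, and 3.71 and 3.11 on chromosome 15. The HoxD cluster on chromosome 2 scored lowest in both replicates, down to Hoxd1 at 1.56 and 1.55.

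Over all genes, 70.5% were early, 9.06% middle and 20.5% late. Of 63 replication-dependent histone genes, which are transcribed in S phase, 41 (65.1%) were early, 13 (20.6%) middle and 9 (14.3%) late. Their early and late shares lay near those of all genes. All 10 on chromosome 3 were early, while the 53 of the chromosome 13 cluster ran from H1f2 at -1.08 and -1.16 upwards. Clustered protocadherin genes on chromosome 18 divided evenly, with 24 early, 9 middle and 24 late, from Pcdhb1 at -1.85 and -2.10 to Pcdhgc5 at 2.13 and 2.45. Defensins split by chromosome: all 11 on chromosome 2 were early, with medians of 2.58 and 2.64, and 19 of 27 on chromosome 8 were late. None of 22 UDP glucuronosyltransferase genes was early.

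Neuronal receptor and adhesion families held members at both extremes. Over all genes, 67.2% were earlier and 17.9% later beyond error. Of 13 GABA-A receptor genes, 8 were later and 4 earlier beyond error, from Gabra4 at -3.13 and -3.13 to Gabrd at 3.20 and 2.88. Of 18 ionotropic glutamate receptor genes, 7 were later and 9 earlier, from Gria1 at -2.98 and -3.56 to Grid2ip, which was taken in by its symbol and encodes an interacting protein, at 2.98 and 4.31. Of 15 contactin and neurexin family genes, 11 were later and 4 earlier, and Cntnap1, which organizes the axon beside the node of Ranvier, was the earliest at 3.64 and 3.59. Among 20 cadherin genes, 10 were later and 6 earlier, with Cdh1, the epithelial E-cadherin of embryonic stem cells, earliest at 2.78 and 3.40 and Cdh20 latest at -3.36 and -3.60.

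Other gene classes of RefSeq differed in timing, where 40.2% of bins were early and 48.2% late. Of 379 transfer RNA genes 80.2% were early and 6.07% late, and of 1095 microRNA genes 68.4% and 13.7%. Long noncoding RNA genes were 57.2% early and 29.9% late over 11745 genes. Pseudogenes were nearly even, with 45.3% of 7388 early and 42.6% late, or 4.06 per Mb of early and 3.19 per Mb of late bins. Of 394 variable segments of antigen receptors, 248 lay in retained bins, and 62.5% of those were late. Per Mb they numbered 0.0583 in early, 0.188 in middle and 0.157 in late bins.

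Chromosomes differed in their mix. Chromosome 11 was earliest on average, at 0.84 in both replicates with 58.9% early bins, and chromosome 3 latest, at -0.87 and -0.86 with 25.8%. Over the 19 autosomes, mean score and gene density correlated at r = 0.827 (rho 0.893), a description of chromosomes that share the same bins and annotation. Gene density did not order chromosomes strictly: chromosome 7 held 15.3 genes per Mb, more than chromosome 11 at 14.4, yet averaged 0.17 and 0.16. Agreement of the profiles was alike on all of them, with r from 0.982 on chromosome 3 to 0.987 on chromosome 19.

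Some bins went against the general pattern. The longest stretch of early bins without a protein-coding gene start lay at chr13:97250001-98200000, 950 kb that averaged 2.58 and 2.60 and are overlapped by the bodies of Enc1 and Arhgef28. Another of 850 kb, at 1.15 and 1.29, lay on the same chromosome, overlapped by Pde4d, a phosphodiesterase gene. In the other direction, the late bins with the most gene starts held clustered genes: 9 starts, all of gene models known by a Gm number, in a bin on chromosome 16 at -2.69 and -3.21, keratin-associated protein genes on chromosome 11, with 7 starts in a bin at -1.998 and -1.865, and on chromosome 13 a bin with 7 starts, of 6 histone genes and Trim38, at -0.85 and -1.35. These places were named after their values were seen.

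The profiles differed by 1 score unit or more in 657 bins (1.60%). Replicate 2 was earlier in 436 of them, in 366 runs, and replicate 1 in 221, in 206 runs, and the median run was a single bin of 50 kb in both directions. Differing bins were 351 early, 302 late and 4 middle, or 2.13%, 1.53% and 0.0836% of those classes. None was early in one profile and late in the other. They made up 5.36% of bins with 3 windows and 0.699% of bins with 8 or 9. The longest runs reached 200 kb. One at chr6:61850001-62050000, within Ccser1, scored -3.39 in replicate 1 and -2.15 in replicate 2 on 3 to 5 windows per bin. The other, at chr11:97200001-97400000, scored 2.29 and 3.72 and holds Npepps, Mrpl45, Gpr179 and Socs7. Npepps, an aminopeptidase gene, scored 1.98 and 3.60 there on 3 windows. Runs of 150 kb lay at chr10:127100001-127250000 with Kif5a, a neuronal kinesin gene, at 2.96 and 4.07, at chr11:53300001-53450000 with Hspa4, a chaperone gene, at 2.42 and 3.52, and at chr5:68950001-69100000 at -3.44 and -2.18. Replicate 2 was the earlier one in each of these 5 runs.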

How the data were processed

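The authors deposited 1 timing score per window, quantile normalized per the file name, and the sorted scores of both untreated profiles are identical. Bowtie2, SAMtools, bedtools and mm10 are named in the submitters' processing notes, without versions. The sources used here do not give filters, smoothing, read depth or the formula joining early and late libraries. Quantile normalization hides any difference in overall contrast between profiles. Columns were matched by name, and the 2 columns of the auxin profiles were used only to read the direction of the score from the authors' regions.

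Windows were averaged in 50-kb bins (pandas 2.3.3). Bins were fitted with limma 3.58.1 in R 4.3.3 (lmFit with an intercept only, then treat with a margin of 0.5, Benjamini-Hochberg adjusted p under 0.05), tested on simulated data. A gene took the score of the bin that holds its start in RefSeq (GRCm38.p6), so genes in a bin share a value, and genes without a promoter entry took their lowest coordinate as start. Lists are symbol patterns and hand-written lists, described by counts with no set test. The named genes are those of the longest domains, the earliest and latest member of lists, a fixed panel of well-known genes, the longest differing runs and the promoters nearest the class median in CpG number; exceptions are marked, and 1 gene under this rule is not reported here. The rule, members and lists were chosen with earlier results of these data known. Alternatives are other class limits, bin sizes, window minimums, bin medians, bridged gaps, smoothed runs, gene bodies, single profiles and other settings of the fit.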

Additional observations from a re-analysis of the deposited data

How the results depend on the processing

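Bridging gaps of up to 2 bins gave 1520 late domains and bins of 100 kb gave 1501, against 2569. The median early domain was 600 kb with a limit of 0.25 or with gaps bridged, 500 kb with a limit of 1 or at least 5 windows, 700 kb in bins of 100 kb and 650 kb with single-bin runs smoothed, against 550 kb. The median late domain was 500 kb in bins of 100 kb or with gaps bridged and 350 kb with at least 1 window, against 200 kb. Gene starts per Mb of early bins were 16.2 (limit 0.25), 18.02 (limit 1), 16.4 (at least 5 windows) and 14.7 (gene bodies), and of late bins 4.20, 3.73, 4.33 and 3.14 for the same settings, 3.77 in bins of 100 kb and 3.61 with at least 1 window. The share of bins of the same class in both profiles was 95.19% (limit 0.25), 94.45% (limit 1), 95.93% (100 kb), 95.53% (at least 1 window), 94.57% (at least 5) and 94.76% (bin medians). Their correlation was 0.9872, 0.9833, 0.9846 and 0.9832 for the last 4 of these. By gene bodies 148 olfactory receptor genes were late, because only 205 of them cover a window, and 72.2% of those were late. The densities by gene bodies likewise count only the 16750 protein-coding genes that cover a window, against 19539 in the main count, over the same length of bins. Of those 16750 genes, 72.1% were early and 18.5% late. The cause of the other changes was not tested.

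Called bins stayed within 1.5 times the main count under every setting of the fit tried, from 12482 to 17089 early and from 14546 to 22749 late. Each profile alone gave 901 to 956 early, 1647 to 1769 middle and 2551 to 2621 late domains. No paired analysis was possible because 1 group of 2 profiles was described. Depth is unknown, and bins with few windows, mostly late, are the least certain.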
